A study of Mus musculus with 8 samples.

Results

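The mouse genes Ccl21a, Ccl21b, Ccl21c, Ccl19, Ccl27a, Ccl27b, Il11ra1 and Il11ra2 lie together on chromosome 4, where stretches of DNA holding chemokine and interleukin-11 receptor genes were copied several times. Every array probe whose gene name was one of these 8 genes was taken. Of the 8 genes, 4 had a probe by name, with 6 probes in all, out of 27373 distinct names on the array. Il11ra1 and Ccl19 had 2 probes each, Ccl27a and Ccl21a had 1 each, and no probe carried the name Ccl21b, Ccl21c, Ccl27b or Il11ra2. The genes were chosen with the strain difference on these arrays already known, so their values are given as a description with no test. Whole hippocampus was collected from 4 BTBR mice (genotype BTBR T+ Itpr3tf/J) and 4 C57BL/6J (B6) control mice, all male, 5 months old and without drug treatment, the B6 mice labeled wild type. BTBR is an inbred strain used as a model of autism, and B6 is another inbred strain, not a littermate control. RNA of each mouse was labeled with Cy3 and hybridized to its own single-color Agilent array. The arrays sat on 2 slides, slide 1 with replicates 1 and 2 of both strains and slide 2 with replicates 3 and 4.

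Chemokines are small secreted proteins that guide migrating cells along a gradient. Ccl21 and Ccl19 are the ligands of the receptor Ccr7, and they draw dendritic cells and T cells into lymphatic vessels and lymph nodes. Ccl21 is made by lymphatic endothelium and by stromal cells of lymphoid tissue, and the mouse carries several gene copies that encode it. Ccl27 is best known as a chemokine of skin keratinocytes that binds Ccr10. Il11ra1 encodes the receptor chain that binds interleukin-11 and signals together with gp130, the product of Il6st.

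Probe sequences came from the array design and show what each spot could bind. The first 30 bases of a 60-base probe are printed, except for Ccl19 probe 2, for which bases 31 to 60 are shown because they hold the letters AATAAA, those of a polyadenylation signal, in capitals. In the Ccl21a probe the capitals mark 19 bases that are the reverse complement of the capitals in the reverse primer used for qRT-PCR of Ccl21a, so that the array and that assay read the same place in the transcript.
Ccl21a probe: TGGTTCACGGTCCAACTCAcaggcaaagag
Ccl21a reverse primer: TGAGTTGGACCGTGAACCAc
Ccl21a forward primer: aaaggaaagggctccaaggg
Il11ra1 probe 1: tccgatgtcctgaggtggaagtccacctga
Il11ra1 probe 2: agacagggagcaaaagttctctgcatgtgt
Ccl27a probe: gctgtactcagctctatagacagccactcc
Ccl19 probe 1: ctcctgatgctctgtcccagacctaaccca
Ccl19 probe 2: actgcagagcttccAATAAAgccgcttggt
ENSMUST00000177565 probe: gggtacagccgacctagagagcgaatccat
The last sequence belongs to a neighbor that is no member and is described with the flanking probes. The 19 bases matched 1 of 41174 probes of the array, and AATAAA was present on the printed strand in 1967 of them (4.78%). No other probe of the array shared a run of 20 bases with a member probe.

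The copies could not be read separately. The array files list up to 4 transcript accessions for a probe, and these were matched to the RefSeq gene list. For the Ccl21a probe they belonged to 4 genes, Ccl21a, Gm1987, Gm13304 and Gm10591. For the Ccl27a probe they belonged to Ccl27a, Ccl27b, Gm13306 and Gm2506, so that the member Ccl27b was covered by a probe that does not carry its name. Both Il11ra1 probes listed Il11ra1 and Gm13305, whereas for the Ccl19 probes 1 of 4 accessions matched and it belonged to Ccl19. The Ccl21a probe filled all 4 entries, so whether it also binds Ccl21b or Ccl21c could not be told. A value below is therefore that of a probe, and of all copies that bind it. In the RefSeq order of the GRCm38.p6 assembly the cluster runs from Il11ra1 and Ccl27a through Ccl21d, Gm13304, Gm13306, Gm13305, Ccl21b, Gm10591, Ccl27b and Il11ra2 to Ccl19 and Ccl21a. The array files place the Ccl21a probe on mm9 on the plus strand before Ccl19, whose probes are on the plus strand too. RefSeq has Ccl21a after Ccl19 on the minus strand, and the source of this mismatch was not tested. Each probe has a single mm9 position, which need not be that of the only copy it binds, and distances are between such positions.

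RefSeq promoters show how close the copies are. Over 249 aligned bases, from the 250 bases before each start, the promoters of Ccl21a and its copy Ccl21d differed at 1 base, an identity of 99.6%. Those of Ccl27a and Ccl27b differed at 2 of 238 bases, an identity of 99.2%. The 60 bases around the base that sets Ccl21a and Ccl21d apart are shown with that base in capitals, at chr4:42774071-42774130 on the minus strand for Ccl21a and at chr4:41903473-41903532 on the plus strand for Ccl21d (GRCm38.p6).
Ccl21a promoter: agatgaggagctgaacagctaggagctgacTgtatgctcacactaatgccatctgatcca
Ccl21d promoter: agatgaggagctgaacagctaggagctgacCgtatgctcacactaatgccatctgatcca

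Signal over background was similar in both strains. The share of probes that the scanner software called well above background was 56.8% to 71.9% on the B6 arrays and 61.9% to 71.5% on the BTBR arrays. Each of the 6 member probes passed this call on all 8 arrays, none was saturated, and all 6 were among the 27982 probes tested. Levels are normalized log2 intensities, differences are BTBR minus B6 on that scale, and a standard error comes from the limma fit over all tested probes. The level of a probe is not comparable with that of another probe. All 6 hippocampal neuron markers, among them Slc17a7 and Camk2a, were tested. The log2 of their summed normalized intensity was 17.23 to 17.48 in B6 and 16.66 to 17.73 in BTBR hippocampus. Camk2a carried this sum, which takes the brightest probe of each gene, as do the sums of other lists below. The median difference of the 6 neuron markers was -0.44, with 1 of 6 above 0. Limma called 0 of them, 1 of 6 had an unadjusted p under 0.05, and the rank product called 1, Wfs1. BTBR replicates 1 and 2, both on slide 1, stood apart, with 11.44 and 11.60 for Neurod6, a gene of pyramidal neurons, against 13.50 and 13.51 in BTBR replicates 3 and 4 and 12.89 to 13.71 in B6. Values within slide 2 leave these 2 arrays out.

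Ccl21a was the member that set the strains apart. Its probe (NM_011124, chr4:42231835-42231894 on mm9) measured 13.20, 13.39, 13.15 and 12.93 in B6 replicates 1 to 4, and 8.55, 8.25, 8.12 and 8.06 in BTBR replicates 1 to 4. All 4 BTBR arrays lay below all 4 B6 arrays, with a gap of 4.38 between the lowest B6 and the highest BTBR value. B6 hippocampus averaged 13.17 ± 0.19 and BTBR hippocampus 8.25 ± 0.22 (SD, n = 4 each), a difference of -4.92 (standard error 0.13) on the log2 scale. No single fold is given, because the BTBR signal lay close to that of control spots and the difference ran from -6.62 to -4.38 over the alternatives. The difference was -4.89 within slide 1 and -4.95 within slide 2.

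Ccl21a was thus the 1 member probe of 6 whose strains did not overlap. Among all 27982 probes the strains did not overlap for 14.2%, with BTBR lower for 7.27%. Since the members were chosen on this contrast, nothing is read from that count. Within slide 1, with 2 arrays per strain, 5 of 6 member probes did not overlap, beside 54.0% of all probes, and within slide 2 it was 1 of 6, beside 42.4%.

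**Figure D1:**
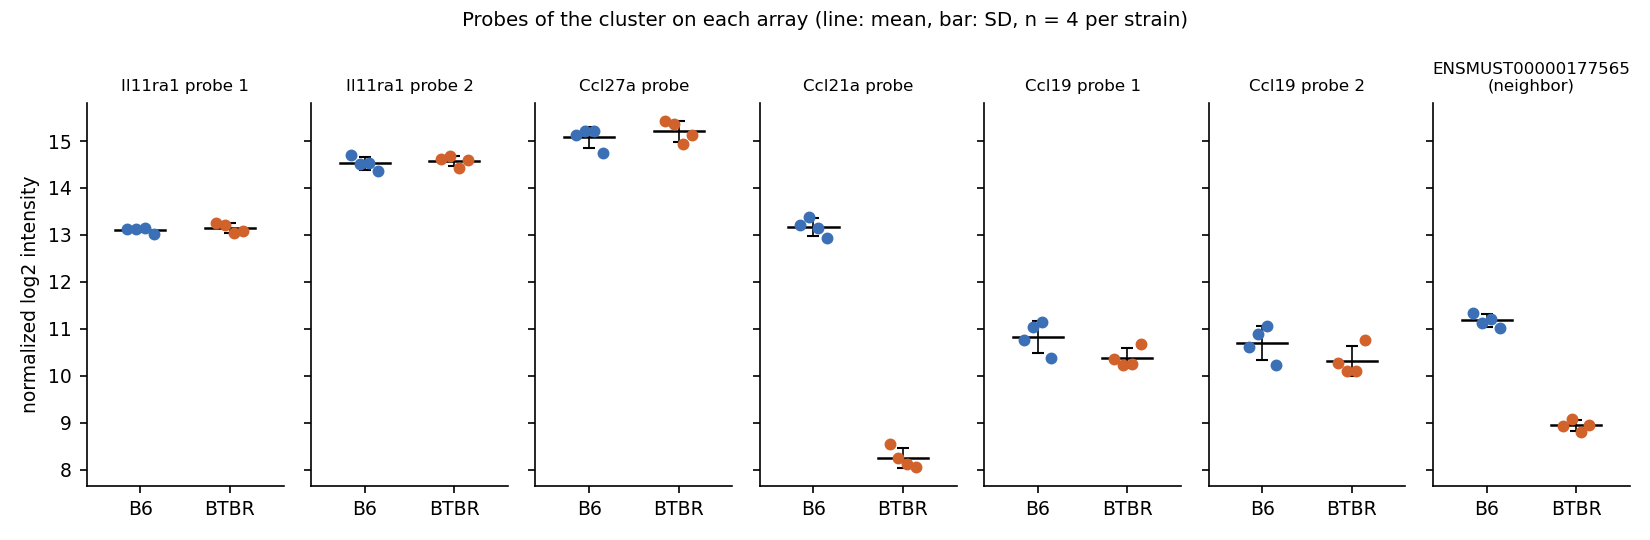
Normalized log2 intensity (y axis) of the 6 member probes and of the neighboring ENSMUST00000177565 probe in the 4 B6 (blue) and 4 BTBR (orange) arrays, with 1 point per array, a line at the mean and a bar for the SD. The BTBR arrays sit below the B6 arrays for Ccl21a (8.25 against 13.17) and ENSMUST00000177565 (8.94 against 11.18), and the strains overlap in the other 5 panels; heights in different panels are different probes and are not comparable.

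Before any scaling between arrays the Ccl21a probe already differed. Mean intensity minus local background was 9669, 12212, 8596 and 7600 in B6 replicates 1 to 4 and 372, 279, 208 and 191 in BTBR replicates 1 to 4. The negative control spots, which should bind no mouse RNA, had a median of 117 to 158 on the B6 arrays and 120 to 147 on the BTBR arrays. Every BTBR array was above the median of its control spots. In BTBR replicates 1, 2 and 4 the probe was also above their 99th percentile, which was 167, 183 and 151, whereas in BTBR replicate 3 it was below it, 208 against 338. The BTBR signal of this probe was close to that of the control spots, and the size of the difference varied with the background correction. The difference was -6.62 (standard error 0.34) with the processed signal of the software, -4.67 with normexp background correction and -4.38 in the deposited matrix.

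**Figure D2:**
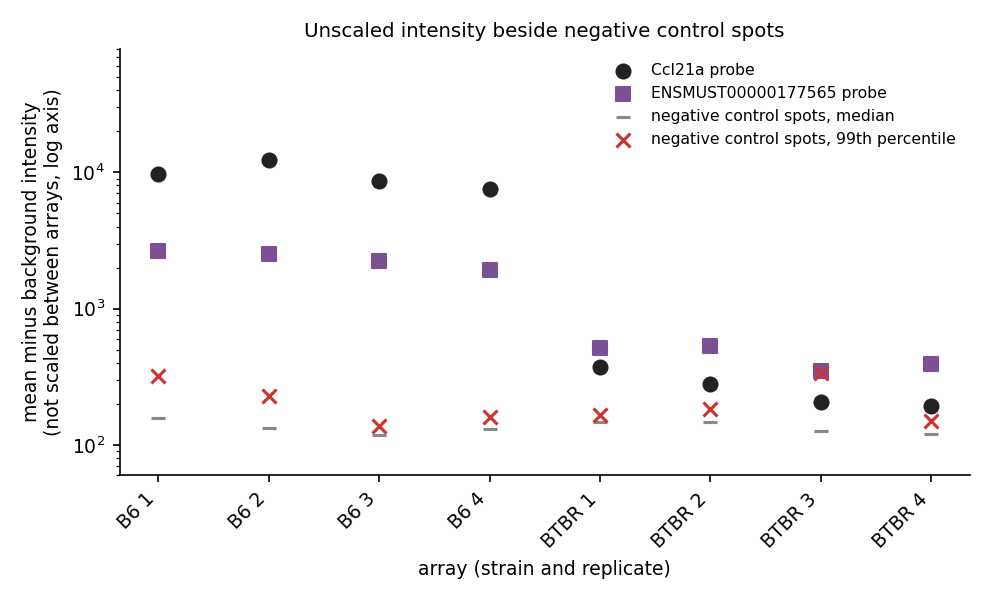
Mean minus background intensity on a log axis, not scaled between arrays, for the Ccl21a probe, the ENSMUST00000177565 probe and the negative control spots (median and 99th percentile) on each of the 8 arrays (x axis). Ccl21a ranges from 7600 to 12212 on the B6 arrays and from 191 to 372 on the BTBR arrays, where it comes near the control spots.

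Ccl19 is the other Ccr7 ligand, and its strains overlapped. On mm9 its nearer probe starts 18517 bases from the position given for the Ccl21a probe. Probe 1 (NM_011888, chr4:42250352-42250411 on mm9) measured 10.76, 11.05, 11.14 and 10.38 in B6 and 10.36, 10.22, 10.24 and 10.68 in BTBR replicates 1 to 4. Probe 2 (chr4:42250432-42250491) measured 10.61, 10.89, 11.06 and 10.23 in B6 and 10.28, 10.10, 10.11 and 10.76 in BTBR. With both probes B6 replicate 4 was the lowest B6 array and BTBR replicate 4 the highest BTBR array. Leaving out either of these arrays ended the overlap of probe 1 but not that of probe 2. The difference was -0.45 (standard error 0.17) for probe 1, with means of 10.83 ± 0.34 and 10.38 ± 0.21 (SD, n = 4). For probe 2 it was -0.38 (standard error 0.20), with means of 10.70 ± 0.36 and 10.31 ± 0.31 (SD, n = 4). Probe 1 differed by -0.61 within slide 1 and by -0.30 within slide 2. Across 20 alternative settings both probes kept a negative difference, from -0.61 to -0.30 for probe 1 and from -0.56 to -0.21 for probe 2.

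**Figure D3:**
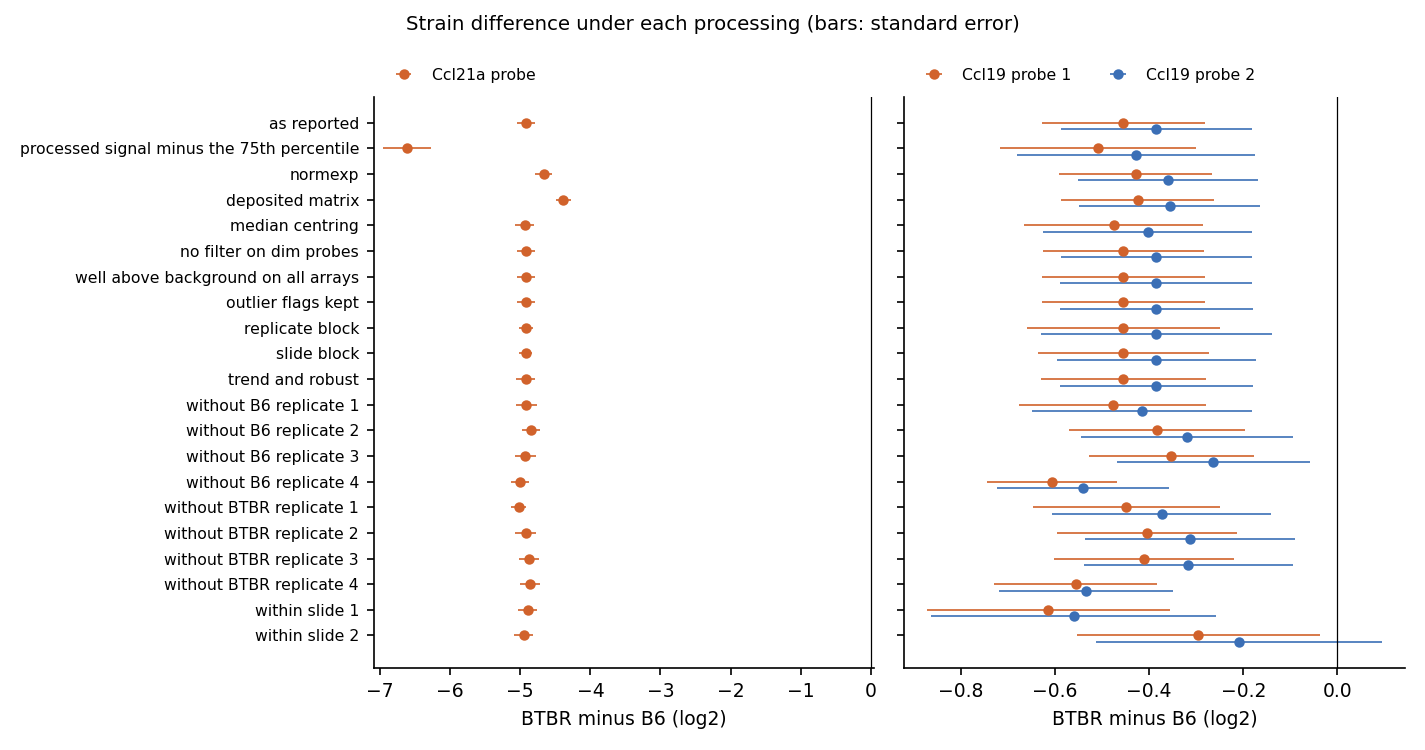
BTBR minus B6 difference (log2, x axis) of the Ccl21a probe (left) and the 2 Ccl19 probes (right) as reported and under each alternative processing (rows), with bars for the standard error. Ccl21a runs from -6.62 to -4.38 and Ccl19 from -0.61 to -0.21, and the 2 panels have different scales.

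At the other end of the cluster, Il11ra1 and Ccl27a lie side by side, their nearest probes 535 bases apart, and their strains overlapped. Il11ra1 probe 1 (NM_010549, chr4:41716152-41716211 on mm9) measured 13.12, 13.12, 13.14 and 13.03 in B6 and 13.25, 13.21, 13.03 and 13.09 in BTBR replicates 1 to 4. Probe 2 (chr4:41716228-41716287) measured 14.69, 14.50, 14.54 and 14.37 in B6 and 14.62, 14.67, 14.42 and 14.61 in BTBR. The differences were 0.04 (standard error 0.07), from 13.11 ± 0.05 to 13.14 ± 0.10 (SD, n = 4), and 0.05 (standard error 0.09), from 14.53 ± 0.13 to 14.58 ± 0.11 (SD, n = 4). Both were smaller than their standard errors, and over the alternatives they ran from -0.02 to 0.10 and from -0.01 to 0.11.

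Ccl27a (NM_011336, chr4:41716763-41716822 on mm9) measured 15.13, 15.22, 15.22 and 14.75 in B6 and 15.42, 15.35, 14.93 and 15.13 in BTBR replicates 1 to 4. Its means were 15.08 ± 0.23 and 15.21 ± 0.22 (SD, n = 4), a difference of 0.13 (standard error 0.14) that was smaller than the SD within either strain. Over the alternatives it ran from 0.02 without B6 replicate 4 to 0.22 without BTBR replicate 3. On mm9 the positions given for the Ccl27a and Ccl21a probes lie 515072 bases apart.

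Probes around the cluster were then examined, to ask whether genes that are no members also differed there. From 40 to 44 Mb on chromosome 4 (mm9), 112 probes with 74 names were tested, and limma called 8 of them at an adjusted p under 0.05, 3 higher and 5 lower in BTBR. This share of 7.14% was near the 7.61% called over the whole array, where 3.31% were higher and 4.30% lower in BTBR. Beyond ENSMUST00000177565, described next, the nearest tested neighbors lay at -526 kb (Galt) and 661 kb (AK143879) from the Ccl21a position. The share therefore mostly describes probes far from Ccl21a. The median difference of these neighbors was 0.04, beside 0.01 over all tested probes. Within slide 2 alone 3 were called, and within slide 1 it was 8.

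The neighbor closest to Ccl21a was also down-regulated in BTBR. The probe named ENSMUST00000177565 (chr4:42213341-42213400 on mm9) starts 18494 bases from the Ccl21a probe, and it was the 1 tested neighbor between the first and the last member probe. It measured 11.34, 11.13, 11.22 and 11.02 in B6 and 8.94, 9.09, 8.80 and 8.95 in BTBR replicates 1 to 4, so that the strains did not overlap. The means were 11.18 ± 0.14 and 8.94 ± 0.12 (SD, n = 4), a difference of -2.23 (standard error 0.09, limma adjusted p = 9.4e-07). This difference was -2.22 within slide 1 and -2.24 within slide 2, and limma called it under all 20 alternatives, from -2.84 to -1.96. Its unscaled intensity was 1929 to 2625 on the B6 arrays and 349 to 535 on the BTBR arrays. Between the first and the last member probe lay 2 more probes, B230220N19Rik and ENSMUST00000178177, which were well above background on 0 and 1 of 8 arrays and were not tested.

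The other called neighbors lay on the Il11ra1 side, the nearest of them, Fam219a, 766 kb from Ccl21a. Nfx1, which encodes a zinc finger repressor of transcription, fell by 0.73 with a probe (standard error 0.07, limma adjusted p = 0.00014), while its other called probes differed by -0.45 and 0.29. Fam219a fell by 0.72 (standard error 0.07, limma adjusted p = 0.00025). 1110017D15Rik rose by 0.77 (standard error 0.17, limma adjusted p = 0.028), a call that was lost in 7 of 8 fits that left out an array and kept without BTBR replicate 4. Ube2r2, a ubiquitin-conjugating enzyme, fell by 0.36 with a probe (standard error 0.08, limma adjusted p = 0.031), a call lost without B6 replicates 1 or 2 or BTBR replicates 1, 2 or 3. Its other probes, none of them called, differed by -0.05, -0.04 and 0.02, the last with the brightest of them. Genes next to Il11ra1, namely Galt, Dctn3 and Rpp25l, were not called, with differences of -0.05 to 0.12.

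**Figure D4:**
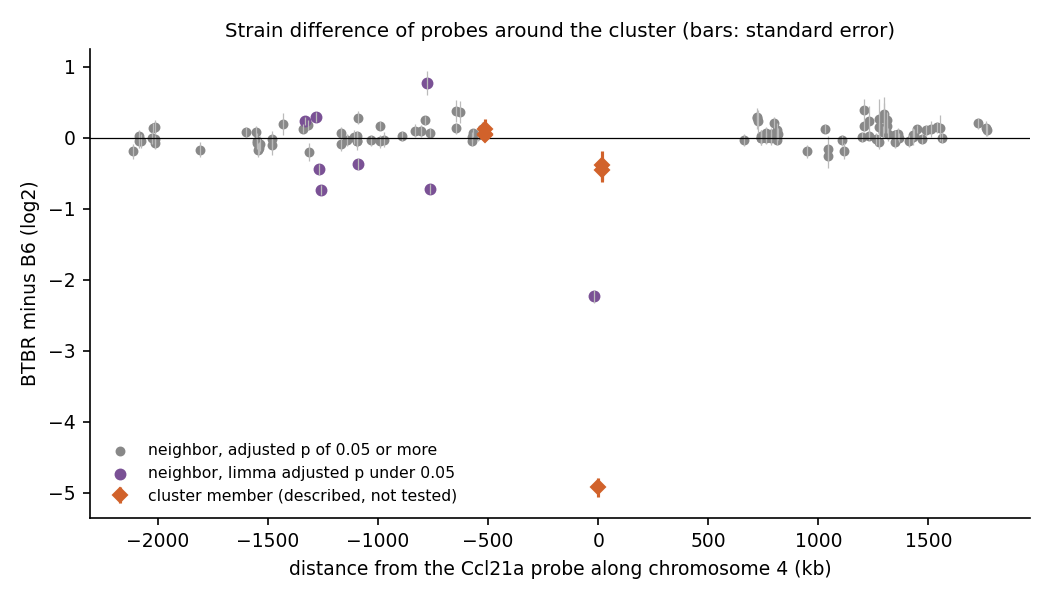
BTBR minus B6 difference (log2, y axis) of 112 tested neighbors and the 6 member probes against the distance in kb from the Ccl21a probe (x axis), with bars for the standard error. Most neighbors lie near 0, ENSMUST00000177565 at -18.5 kb has -2.23, and the Ccl21a probe at 0 kb has -4.92.

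Of the receptors and other ligands of the cluster's chemokines, 8 were on the array and 4 were bright enough to be tested. Ccr7, the receptor of Ccl19 and Ccl21, and Ackr4, which scavenges both, were well above background on 1 of 8 arrays each. Ccr10, the receptor of Ccl27, was so on 0 of 8 arrays, and Ccl28, the other Ccr10 ligand, on 2 of 8. None of these 4 genes was tested. Cxcr3, a chemokine receptor of T cells, differed by 0.17 (limma adjusted p = 0.34), Ccl25, a further Ackr4 ligand, by 0.01 (limma adjusted p = 0.99), and St8sia4, the polysialyltransferase whose product helps Ccr7 to bind Ccl21, by -0.12 (limma adjusted p = 0.55).

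Pdpn, the podoplanin of lymphatic endothelium and fibroblastic stroma that binds Ccl21, was the called gene of this list. It measured 8.10, 8.22, 8.31 and 8.38 in B6 and 8.71, 8.67, 8.44 and 8.79 in BTBR replicates 1 to 4, so it was higher in 4 of 4 BTBR arrays. Pdpn was higher by 0.40 (standard error 0.09, limma adjusted p = 0.034) with this probe and by 0.34 (limma adjusted p = 0.10) with its other probe. The call was lost in 6 of 8 fits that left out an array and kept without B6 replicate 4 or BTBR replicate 3, with adjusted p of 0.012 to 0.10, and within slide 2 it was 0.27 (adjusted p = 0.47).

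Over 4 partner lists with 63 genes, 54 were tested and limma called 6, with 4 higher and 2 lower in BTBR. The higher genes are 7.41% and the lower genes 3.70% of the partner genes, beside 4.28% higher and 5.77% lower among all 18399 tested genes. The median difference of the partner genes was -0.00, beside 0.01 over all genes. At an unadjusted p under 0.05 the number was 11, or 20.4% of the partner genes, beside 20.7% of all genes. The rank product called 1 partner gene at a pfp (percentage of false prediction) of 0.05 or less, beside 5.44% of all genes and 3.92% of all probes. Within slide 2 alone limma called 1 partner gene, and within slide 1 it called 8.

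Lymphotoxin and non-canonical NF-kB genes, the pathway that maintains Ccl21 and Ccl19 in lymphoid stroma, had 0 of 11 tested genes called by limma and 0 by the rank product, and 0 had an unadjusted p under 0.05. Among them Ltb, a lymphotoxin subunit, differed by -0.08, its receptor Ltbr by -0.14, the kinase Map3k14 by 0.29, Relb by -0.20 and Nfkb2 by 0.09.

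In the IL-11 and gp130 family 2 of 21 tested genes were called, beside 4.28% higher and 5.77% lower among all tested genes. Osmr, the oncostatin M receptor, measured 10.44, 10.36, 10.71 and 10.42 in B6 and 9.75, 10.03, 10.06 and 10.02 in BTBR replicates 1 to 4. All BTBR arrays were below the B6 arrays with this probe, and Osmr fell by 0.52 (standard error 0.10, limma adjusted p = 0.014). A dimmer Osmr probe differed by 0.00. Il11, the ligand of Il11ra1, differed by 0.01 and its co-receptor Il6st by -0.05, neither of them called.

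Genes that act downstream of chemokine receptors had 3 of 18 tested genes called, all higher in BTBR. Among all tested genes 4.28% were called higher and 5.77% lower, and nothing is read from so short a list. Pik3cg, the phosphoinositide 3-kinase gamma of G protein-coupled receptors, measured 8.45, 8.40, 8.22 and 8.20 in B6 and 8.72, 8.80, 8.74 and 8.82 in BTBR replicates 1 to 4. The increase was 0.46 (standard error 0.07, limma adjusted p = 0.0054), and Pik3cg remained called in all 8 fits that left out an array. Arrb1, a beta-arrestin, rose by 0.34 (standard error 0.06, limma adjusted p = 0.0072), but its brighter probe differed by -0.02. Adrbk2, a receptor kinase, rose by 0.43 (standard error 0.10, limma adjusted p = 0.036) with a probe, while a brighter probe differed by -0.17. The Adrbk2 call was lost in 7 of 8 fits that left out an array and was kept without BTBR replicate 2.

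**Figure D5:**
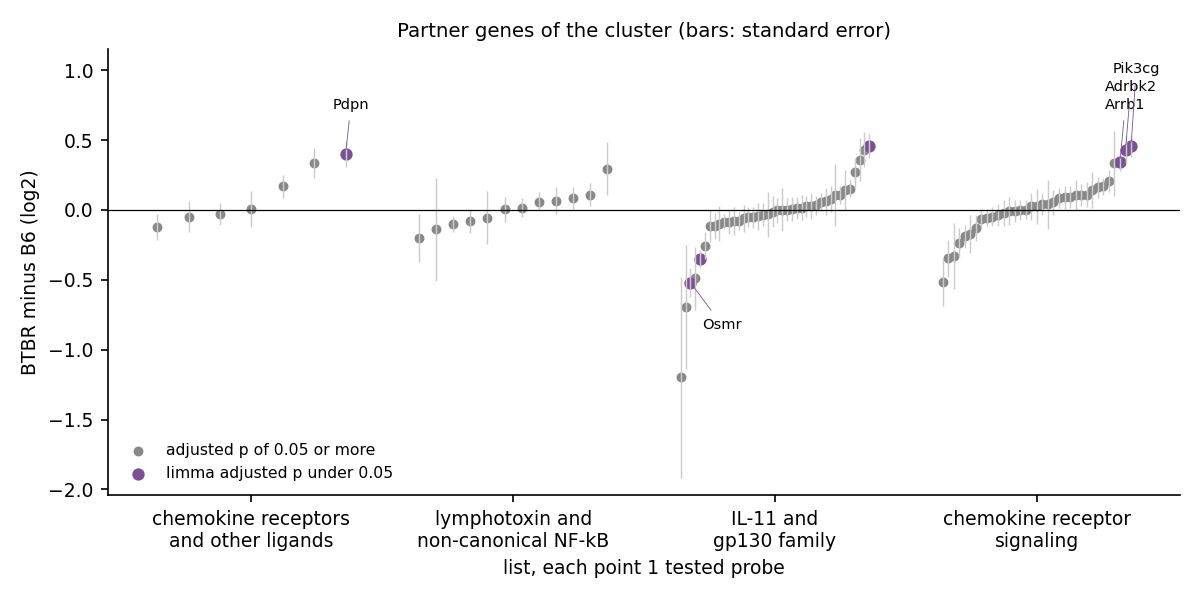
BTBR minus B6 difference (log2, y axis) of each tested probe in the 4 partner lists (x axis), sorted within a list, with bars for the standard error, probes called by limma in purple, and names at those the text describes. The named probes lie between -0.52 (Osmr) and 0.46 (Pik3cg).

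Marker lists of cells that make or meet these chemokines were set beside the Ccl21a values. Among all tested genes limma called 4.28% higher and 5.77% lower in BTBR, the shares to set beside each marker count. In bulk hippocampus, fewer cells of a type and less RNA per cell cannot be told apart. Of 5 lymphatic endothelium markers 4 were tested and 1, Pdpn, was called and higher in BTBR. Lyve1 differed by 0.20 and Flt4 by 0.05, and Prox1, also a gene of dentate granule neurons, by -0.59 with its brightest probe, none of them called, while Mmrn1 was not tested. Flt4 was well above background on 2 of 4 B6 and 3 of 4 BTBR arrays, so it was tested only through BTBR, and the median difference of the 4, 0.12, carries no weight. The log2 of the summed intensity of that list was 11.65 to 12.65 in B6 and 11.14 to 12.29 in BTBR hippocampus. Prox1 carried this sum, and without Prox1 it was 9.65 to 9.82 in B6 and 9.88 to 10.07 in BTBR. The sum without Prox1 holds Lyve1, the called Pdpn and Flt4, which was tested only through BTBR, so it carries no weight either. The part of lymphatic endothelium in the Ccl21a difference was not tested.

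Among 8 meningeal fibroblast markers Igf2, a growth factor, was called and rose by 1.24 (standard error 0.29, limma adjusted p = 0.033), a call lost in 6 of 8 fits that left out an array and kept without B6 replicate 3 or BTBR replicate 3. Its other probe differed by 1.29 (limma adjusted p = 0.065). The rank product called Igf2 and the transporter gene Slc6a13, whose probes differed by 1.05 and 1.02 (limma adjusted p = 0.23 and 0.22), and 6 of 8 markers were above 0. The log2 of the summed intensity of that list was 14.23 to 15.79 in B6 and 14.79 to 15.74 in BTBR. Of 6 choroid plexus markers 0 were called by limma and 1 had an unadjusted p under 0.05, with a sum of 14.07 to 15.59 in B6 and 14.40 to 16.51 in BTBR, and the rank product called 1, Sostdc1, which differed by 1.65 (limma adjusted p = 0.16). All 6 were above 0, with a median of 0.41. BTBR replicates 1 and 2 were high in this list, with 13.49 and 13.46 for Ttr, the transthyretin gene, against 10.98 and 11.31 in BTBR replicates 3 and 4 and 10.42 to 12.71 in B6. The Ccl21a difference within each slide is given above, and the part of choroid plexus in it was not tested. Blood endothelium had 1 of 6 called, the thyroid hormone transporter gene Slco1c1, which rose by 0.73 (standard error 0.13, limma adjusted p = 0.0098). Its sum was 14.84 to 15.27 in B6 and 15.06 to 15.31 in BTBR.

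Markers of the cells that Ccl21 attracts were measured too. Of 6 T cell markers 3 were tested, and Cd3g, Cd4 and Cd8a were not. Cd3d, a chain of the T cell receptor complex, was called with 0.38 (standard error 0.09, limma adjusted p = 0.039), a call lost in 7 of 8 fits that left out an array and kept without B6 replicate 3. Cd3d was well above background on 2 of 4 B6 and 4 of 4 BTBR arrays, so it was tested only through the strain in which it was higher, and its difference carries no weight. The sum of the T cell list was 10.26 to 10.42 in B6 and 10.46 to 10.58 in BTBR, but without Cd3d the strains overlapped, with 10.01 to 10.14 in B6 and 10.13 to 10.29 in BTBR. Dendritic cell markers had 0 of 3 called by limma or the rank product and 0 at an unadjusted p under 0.05, with a sum of 10.24 to 10.26 in B6 and 10.12 to 10.26 in BTBR. In the microglia list 1 of 5 genes was called, the fractalkine receptor gene Cx3cr1, with 1.41 (standard error 0.09, limma adjusted p = 1.1e-05), but its other probe differed by -0.10. The microglia sum was 14.62 to 14.73 in B6 and 14.91 to 15.18 in BTBR, but without Cx3cr1 it was 14.36 to 14.49 and 14.25 to 14.57. The median difference of the list was -0.01, with 2 of 5 genes above 0. The part of these cells in the Ccl21a difference was not tested.

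Several probes on other chromosomes followed the same pattern as Ccl21a over the 8 arrays. The 5 with the highest Pearson correlation with it were TC1683126 (r = 0.999, chromosome 11), Rlbp1 (r = 0.999, chromosome 7), Pnpla8 (r = 0.998, chromosome 12), 9130023H24Rik (r = 0.998, chromosome 7) and Ppip5k1 (r = 0.998, chromosome 2). Their differences were -2.08, -2.80, -2.98, -0.99 and -2.00. All but Ppip5k1 averaged between 7.78 and 8.06 in BTBR and were not well above background on all arrays, and with the processed signal those 4 differed by -4.67, -4.51, -4.92 and -2.74, so their sizes are not firm. Rlbp1 encodes a retinaldehyde-binding protein, Pnpla8 a phospholipase and Ppip5k1 an inositol phosphate kinase. The arrays form 2 strain clusters, so these correlations describe the gap between the strains and carry no p.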

How the data were processed

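The intensity values were deposited by the authors as Agilent Feature Extraction read them from single-color arrays, with mean spot intensity, median local background, a processed signal and flags, none scaled between arrays. The authors also deposited a matrix of log2 values, for which their methods name Agi4x44PreProcess, quantile normalization and a median of repeated spots. Groups came from the strain in the labels, although the background field of the BTBR samples reads C57BL/6J. Here each spot's mean intensity was reduced by its local background with a floor of 0.5, an offset of 50 was added, and the log2 of the sum was quantile normalized, with the median taken over spots of a probe. Control probes, 154 probes with outlier flags and probes not well above background on 75% of the arrays in either strain were left out, which kept 27982 of 41174 probes. The offset of 50 understates differences of dim probes.

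Strain was fitted alone with limma 3.58.1 in R 4.3.3 over all probes, with Benjamini-Hochberg adjusted p under 0.05 called. A gene took its called probe with the smallest p, and otherwise its brightest probe. The rank product used 16 array pairs and 100 permutations in Python 3.11.15 with NumPy 2.4.6. Both were tested on simulated data. The number of arrays, 4 per strain, limits the precision. Members, lists and naming rule were chosen with earlier results of these data known. The rule named all member probes, all chemokine receptors and ligands of the list, up to 3 called genes per other list, 5 called neighbors and 5 probes most like Ccl21a. Further genes were named after their values were seen. Some genes that the rule names are not reported here. Alternatives were 3 other signal or normalization choices, median centring, other filters, slide or replicate blocks, each array left out, single slides, limma with trend and robust options, brightest probes and a pfp of 0.01. Probe positions are those of mm9, and RefSeq names and promoters are those of GRCm38.p6.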

Additional observations from a re-analysis of the deposited data

Results flagged for a closer look

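In 58 groups of 4 arrays, 3 held an array far from the others, where chance gives about 1 in 20. For Il11ra1 probe 1, B6 replicate 4 was lowest, at 13.03 with the nearest array at 13.12, and this gap was 0.831 of the range of the B6 arrays. For Ccl25, BTBR replicate 1 was lowest, at 11.24 with the nearest array at 11.76, a gap of 0.916 of the range. For Osmr, BTBR replicate 1 was lowest, at 9.75 with the nearest array at 10.02, a gap of 0.876 of the range.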

How the results depend on the processing

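The Ccl21a difference was negative under all 20 alternatives. It was -6.62 with the processed signal, -4.67 with normexp and -4.38 in the deposited matrix, and -5.03 to -4.85 when each array was left out. The number of member probes without overlap was 1 to 2 when each array was left out, with 2 when replicate 4 of either strain was left out, and it was 5 within slide 1. Partner genes called by limma were 4 to 7 when each array was left out, 1 within slide 2 and 3 when the brightest probe alone stood for a gene. Partner genes called by the rank product were 0 at a pfp of 0.01 and 0 to 1 when each array was left out, with 0 without B6 replicates 1 or 4 and without BTBR replicates 1 or 2. Called neighbors on chromosome 4 were 3 within slide 2 and 4 to 7 when each array was left out, with the fewest when replicate 2 of either strain was left out. The cause of these shifts was not tested.

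The replicate numbers are shared by the strains but are only numbers. Deviations of arrays with the same number correlated at -0.14, 0.51, -0.10 and 0.39, so the block was not used for the report. With the replicate block 4 neighbors and 6 partner genes were called, and the Ccl21a difference was -4.92 (standard error 0.10).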
